A study of Parachlorella kessleri with 6 samples.

Results

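The transcripts described here are those grouped as fatty acid desaturases in the green microalga Parachlorella kessleri. They are 10 of the 22972 rows of a gene table in which each row stands for 1 assembled Trinity gene, and all 10 passed the filter on low counts. For 9 of them the membership rests on a Pfam protein domain named FA_desaturase or FA_desaturase_2. The other, TRINITY_DN5316_c2_g1, has no Pfam entry and was added because its best Swiss-Prot match is the chloroplast delta-7 desaturase FAD5. Its KEGG name is a different one, SCD or desC, so the delta-7 label used below rests on the Swiss-Prot match alone. The libraries come from total RNA of 2-day cultures, 3 grown under control conditions and 3 under salt stress. The sources used here do not give the salt concentration or the medium, and no strain or genotype is named for either group. Nothing states that the replicates are separate cultures, so p-values measure the spread between these libraries, which may be technical. In such bulk libraries a different number of cells in some state and a different amount of RNA per cell cannot be told apart.

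Fatty acid desaturases put double bonds into acyl chains, which sets how unsaturated membrane and storage lipids are. In plants and green algae a soluble acyl-ACP desaturase of the plastid makes the first double bond in stearate while the chain is still bound to acyl carrier protein, giving oleate. Membrane-bound desaturases then act on chains already in glycerolipids: FAD2 of the endoplasmic reticulum and FAD6 of the plastid add the delta-12 (omega-6) bond, and FAD7 and FAD8 of the plastid add the omega-3 bond. In Arabidopsis FAD5 places a delta-7 bond in palmitate on the galactolipid MGDG. The names below come from best database matches and do not establish which bond each protein makes in this alga.

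By position, 3 rows were annotated as delta-12 or omega-6 desaturases, 2 as acyl-ACP desaturases, and 1 each as omega-3, delta-7 and sphingolipid delta-4 desaturase. A further row was annotated as alkane hydroxylase, an enzyme of the same membrane di-iron family, and 1 row had no desaturase position in its description. Both are counted among the desaturase rows below, though neither is described as a fatty acid desaturase. The best match in the NR database was a Chlorella variabilis protein for 5 rows and a Chlorella vulgaris protein for 2. It was a protein of Chlorella sp. LKT-2007, of the green alga Lobosphaera incisa and of Eucalyptus grandis for 1 row each.

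Library depth ranged from 16460455 to 24065705 counts, and the 10 rows held 0.254% to 0.260% of the counts in the control libraries and 0.440% to 0.508% in the salt libraries. Levels are given as CPM on TMM-scaled library sizes unless stated otherwise, and the test was the edgeR quasi-likelihood test over 11438 rows with Benjamini-Hochberg adjusted p under 0.05. Control replicate 1 stood apart from the other control libraries, with a chi-square per row of 173 and 147 against replicates 2 and 3 and 5.23 between those, and the salt libraries differed by 33.4 to 58.5. The log2 fold change between the replicate 1 libraries and that within replicates 2 and 3 is therefore given beside most results. Scaling to library totals alone moved the median log2 fold change of all rows by 0.18.

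Of the 10 rows, 6 were raised, 1 was lowered and 3 did not pass the test. Across all tested rows 29.1% were raised and 28.7% lowered, so 57.8% passed in either direction. The libraries of the 2 groups did not overlap for 6 rows with salt higher and for 2 with salt lower, against backgrounds of 34.1% and 32.6%. At a change of at least 2-fold, 5 rows were raised and 1 was lowered (15.9% and 17.7% of all rows). The median log2 fold change was 0.90 over the 10 rows and 0.01 over all tested rows. Summed over the 10 rows, CPM was 2749 ± 191 (SD, n = 3) in control and 4542 ± 453 (SD, n = 3) in salt.

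**Figure D1:**
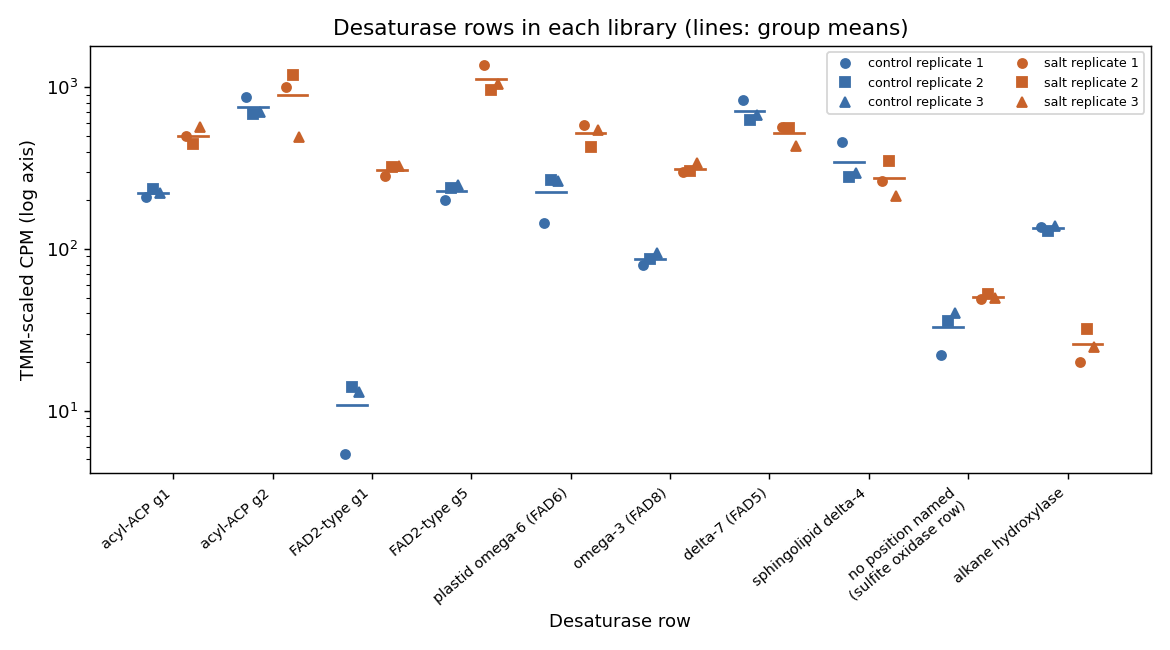
TMM-scaled CPM (log axis) of each of the 10 desaturase rows in the 3 control (blue) and 3 salt (orange) libraries, with marker shape giving the replicate number and lines the group means. Both FAD2-type rows, the plastid omega-6, omega-3, acyl-ACP g1 and sulfite oxidase rows have all salt points above all control points, and the alkane hydroxylase and delta-7 rows have all salt points below them.

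On CPM the delta-12 and omega-6 rows had the largest rise of any position group's sum, 4.20-fold. Their sum was 466 ± 99.3 CPM in control and 1958 ± 259 CPM in salt (SD, n = 3 each). On the deposited FPKM the ratio of salt to control was 4.47 for these rows and 4.82 for the omega-3 row. The ranking therefore depends on the scale. All 3 delta-12 and omega-6 rows were raised. They comprise 2 FAD2-type rows of 1 Trinity cluster and the plastid FAD6 row.

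TRINITY_DN4714_c0_g1 is a FAD2-type row by its KEGG name, and its best NR match is the delta-12 desaturase of Lobosphaera incisa. Its Swiss-Prot match is a delta-12 fatty acid dehydrogenase, also named crepenynate synthase and delta-12 fatty acid acetylenase. The row had 5.42, 14.0 and 13.0 CPM in the control libraries and 281, 322 and 324 CPM in the salt libraries. It was low in all 3 control libraries, lowest in replicate 1, and the groups were far apart. The log2 fold change was 4.84 (SE 0.37, edgeR adjusted p = 8.96e-05), with 5.57 between the replicate 1 libraries and 4.53 within replicates 2 and 3. Its FA_desaturase domain spans 214 residues, and the DUF3474 domain, which lies just ahead of FA_desaturase in a single reading frame of the omega-3 row, was called in another reading frame of this row.

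TRINITY_DN4714_c0_g5, a FAD2-type row matched to the endoplasmic reticulum omega-6 desaturase, had 201, 237 and 250 CPM in the control libraries and 1365, 968 and 1051 CPM in the salt libraries. Salt replicate 1 was the highest of the 6 libraries and control replicate 1 the lowest. The log2 fold change was 2.30 (SE 0.19, edgeR adjusted p = 0.000106), with 2.76 between the replicate 1 libraries and 2.05 within replicates 2 and 3. Its FA_desaturase domain of 263 residues was the longest of that name among the 10 rows.

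Per length, the FAD2-type g5 row remained the more abundant of the pair in both groups. The ratio of g1 to g5 on the deposited FPKM was 0.036, 0.070 and 0.075 in control and 0.273, 0.446 and 0.408 in salt. The lowest salt ratio lay above the highest control ratio, with g1 a larger part of the pair in salt, a difference of 2.68 on the log2 scale (exact permutation test, two-sided p = 0.1, the smallest that 3 against 3 allows, 0.15 adjusted over 6 ratios). The 6 ratios were chosen after their values were seen. As assembled neighbours of 1 cluster, the 2 rows may share reads, and the sources used here do not give how reads were divided between them.

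TRINITY_DN4529_c1_g1, matched to the plastid omega-6 desaturase FAD6, had 145, 267 and 265 CPM in the control libraries and 586, 429 and 548 CPM in the salt libraries. The groups did not overlap, and control replicate 1 lay well under the other control libraries. The row rose by 1.21 ± 0.26 on the log2 scale (SE, edgeR adjusted p = 0.00651), with 2.01 between the replicate 1 libraries and 0.87 within replicates 2 and 3. The FPKM ratio of the FAD2-type g5 row to this row was 1.42, 0.957 and 0.992 in control and 2.49, 2.43 and 2.06 in salt. The endoplasmic reticulum type thus led the plastid type in each salt library, while in control they lay close together in replicates 2 and 3 (exact permutation test on the log2 ratio, two-sided p = 0.1, 0.15 adjusted over the 6 ratios).

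The omega-3 row TRINITY_DN5330_c4_g1, matched to FAD8, had 79.4, 86.8 and 94.9 CPM in the control libraries and 299.9, 302 and 340.5 CPM in the salt libraries. Both groups were tight and lay far apart. The change was 1.85 on the log2 scale (SE 0.12, edgeR adjusted p = 5.73e-05), with 1.91 between the replicate 1 libraries and 1.81 within replicates 2 and 3.

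The omega-3 row was the only one of the 10 whose implied length, the length at which its counts give its deposited FPKM, differed by 10% or more between groups. After scaling out each library's constant, the implied length was 3417, 3182 and 3424 bases in control and 2543, 2560 and 2501 bases in salt. Every salt library gave a shorter value than any control library, and salt over control was 0.759. Over 10274 rows with at least 10 counts in each library, 4.53% were shorter in salt by 10% or more. The row carries a second reading frame with a SET domain, the catalytic domain of histone lysine methyltransferases, at residues 1096 to 1148, beside the reading frame with FA_desaturase at residues 133 to 388. Its counts cannot be divided between the 2 reading frames here. On FPKM the ratio of salt to control was 4.82, against 3.61 on CPM, and the log2 fold change in the authors' deposited table was 2.29.

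The FPKM ratio of the omega-3 row to the FAD2-type g5 row was 0.182, 0.180 and 0.175 in control and 0.136, 0.192 and 0.203 in salt. On this scale the ranges overlapped, and the difference was -0.04 in log2 (exact permutation test, two-sided p = 1). On CPM, which the implied length does not enter, the same ratio was 0.396, 0.366 and 0.380 in control and 0.220, 0.312 and 0.324 in salt. There every salt library was below every control library, by -0.44 in log2 (exact permutation test, two-sided p = 0.1, also 0.1 adjusted over the 6 ratios on CPM), so the result depends on the scale. The CPM ratios were added after the FPKM ratios had been seen.

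The acyl-ACP desaturases were present as 2 rows of 1 Trinity cluster, of which 1 was raised and 1 did not pass the test. TRINITY_DN4399_c0_g1, with an FA_desaturase_2 domain of 331 residues, had 210.3, 234 and 223 CPM in the control libraries and 499, 444 and 565 CPM in the salt libraries. All salt libraries were above all control libraries (edgeR adjusted p = 0.000408), and the change was 1.17 ± 0.13 on the log2 scale (SE).

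TRINITY_DN4399_c0_g2, with a shorter FA_desaturase_2 domain of 161 residues, had 874, 679 and 700.5 CPM in the control libraries and 998, 1196 and 493 CPM in the salt libraries. Salt replicates 1 and 2 were above the control libraries and salt replicate 3 was below them, so the groups overlapped. The log2 fold change was 0.25 (SE 0.32, edgeR adjusted p = 0.521), and leaving out 1 library at a time moved it between 0.00 and 0.56. In salt replicate 3 the low g2 value coincided with the highest g1 value. The g1 to g2 ratio on FPKM was 0.242, 0.177 and 0.544 in salt and 0.111, 0.157 and 0.185 in control, with overlapping ranges (exact permutation test, two-sided p = 0.2, 0.24 adjusted over the 6 ratios). The implied length of g1 was 2698 bases in control replicate 3, the control library with the highest FPKM ratio, against 3402 and 3454 bases in the other control libraries. On CPM the ratio was 0.241, 0.345 and 0.318 in control and 0.500, 0.371 and 1.14 in salt, and the ranges did not overlap (exact permutation test, two-sided p = 0.1, also 0.1 adjusted over the 6 ratios on CPM).

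The delta-7 row TRINITY_DN5316_c2_g1 had 829, 630.2 and 671 CPM in the control libraries and 567, 560.1 and 435 CPM in the salt libraries. Each salt library was below each control library, but the row did not pass the test (log2 fold change -0.45, SE 0.17, edgeR adjusted p = 0.0594). With the replicate number as a block it passed, at the same fold change (edgeR adjusted p = 0.0457), which takes the number of lowered rows from 1 to 2. It also passed with DESeq2 size factors (edgeR adjusted p = 0.0494), with the DESeq2 Wald test (adjusted p = 0.0216) and with a term for the replicate 1 libraries (edgeR adjusted p = 0.0236). In 13 of 17 alternatives it stayed uncalled. Among these were library totals (log2 fold change -0.26, edgeR adjusted p = 0.159) and every fit without 1 library (adjusted p from 0.0678 to 0.207). The FPKM ratio of the FAD2-type g5 row to the delta-7 row was 0.408, 0.628 and 0.614 in control and 3.89, 2.82 and 3.93 in salt. The delta-7 row was thus the more abundant per length in all 3 control libraries and the less abundant in all 3 salt libraries (exact permutation test on the log2 ratio, two-sided p = 0.1, 0.15 adjusted over the 6 ratios).

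The sphingolipid row TRINITY_DN5945_c0_g1 matches DES1, which in animals places the delta-4 bond in the sphingoid base of ceramides. It had 459.8, 278 and 296 CPM in the control libraries and 263, 349.6 and 213 CPM in the salt libraries. Control replicate 1 was the highest, and the other libraries of the groups overlapped. The log2 fold change was -0.32 (SE 0.26, edgeR adjusted p = 0.311), with -0.81 between the replicate 1 libraries and -0.07 within replicates 2 and 3. The FA_desaturase domain of this row, 103 residues long, and its Lipid_DES domain of 35 residues were called in different reading frames.

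TRINITY_DN6008_c4_g9 matches the alkane 1-monooxygenase of Pseudomonas aeruginosa, which hydroxylates the terminal carbon of alkanes, and was the only row of the 10 lowered in the main test. It had 136, 129.7 and 139 CPM in the control libraries and 20.1, 32.2 and 24.9 CPM in the salt libraries. The control libraries were nearly equal and every salt library lay far below them. It fell by 2.39 on the log2 scale (SE 0.18, edgeR adjusted p = 8.84e-05), with -2.73 between the replicate 1 libraries and -2.23 within replicates 2 and 3.

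TRINITY_DN5012_c3_g3 is described as mitochondrial sulfite oxidase, which oxidises sulfite to sulfate. Its 98-residue Oxidored_molyb domain lies in a different reading frame from its 113-residue FA_desaturase domain, so its counts cannot be assigned to a desaturase. It had 22.0, 35.9 and 40.3 CPM in the control libraries and 49.1, 52.9 and 49.6 CPM in the salt libraries. The salt libraries were nearly equal and above all control libraries, with control replicate 1 the lowest. The log2 fold change was 0.63 (SE 0.22, edgeR adjusted p = 0.045), with 1.14 between the replicate 1 libraries and 0.42 within replicates 2 and 3. The call was lost without control replicate 2 (edgeR adjusted p = 0.0694) and without salt replicate 1, 2 or 3 (adjusted p = 0.0905, 0.106 and 0.0901), and without control replicate 1 the log2 fold change was 0.41. It was also lost with DESeq2 size factors (edgeR adjusted p = 0.0521) and with limma on log2 FPKM (adjusted p = 0.103 and 0.0991 with pseudocounts of 0.1 and 1), which leaves 5 raised rows in place of 6.

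The deposited FPKM values, which account for length, allow the rows to be ordered within a group. In control the acyl-ACP g2 row led with 469 ± 16.0 FPKM (SD, n = 3), followed by the delta-7 row with 266 ± 8.34 and the sphingolipid row with 185 ± 31.5. The ranges of these 3 rows did not overlap. The FAD2-type g5 row came next with 146 ± 28.9 FPKM, just below the range of the sphingolipid row. Its range overlapped that of the plastid omega-6 row with 137 ± 50.6, as did in turn those of the acyl-ACP g1 row with 70.5 ± 15.4 and the alkane hydroxylase row with 67.9 ± 5.61. The omega-3 row stood apart below them with 26.0 ± 4.89 FPKM. The sulfite oxidase row with 11.5 ± 4.10 and the FAD2-type g1 row with 9.18 ± 4.47 were lowest and overlapped.

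In salt the FAD2-type g5 row led with 727 ± 146 FPKM, and its range overlapped that of the acyl-ACP g2 row with 552 ± 216. The plastid omega-6 row with 313 ± 56.5 and the FAD2-type g1 row with 264 ± 19.3 came next, with each neighbour in this order overlapping. The delta-7 row with 206 ± 27.8 FPKM lay below the range of the FAD2-type g1 row. The acyl-ACP g1 row with 149 ± 20.4, the sphingolipid row with 148 ± 34.1 and the omega-3 row with 125 ± 12.2 overlapped in turn. The sulfite oxidase row with 18.3 ± 0.658 and the alkane hydroxylase row with 13.0 ± 2.66 were lowest and did not overlap each other. The FAD2-type g1 row thus moved from rank 10 to rank 4 and the delta-7 row from rank 2 to rank 5. Summed over all 10 rows, FPKM was 1387 ± 57.6 in control and 2517 ± 270.3 in salt (SD, n = 3 each).

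**Figure D2:**
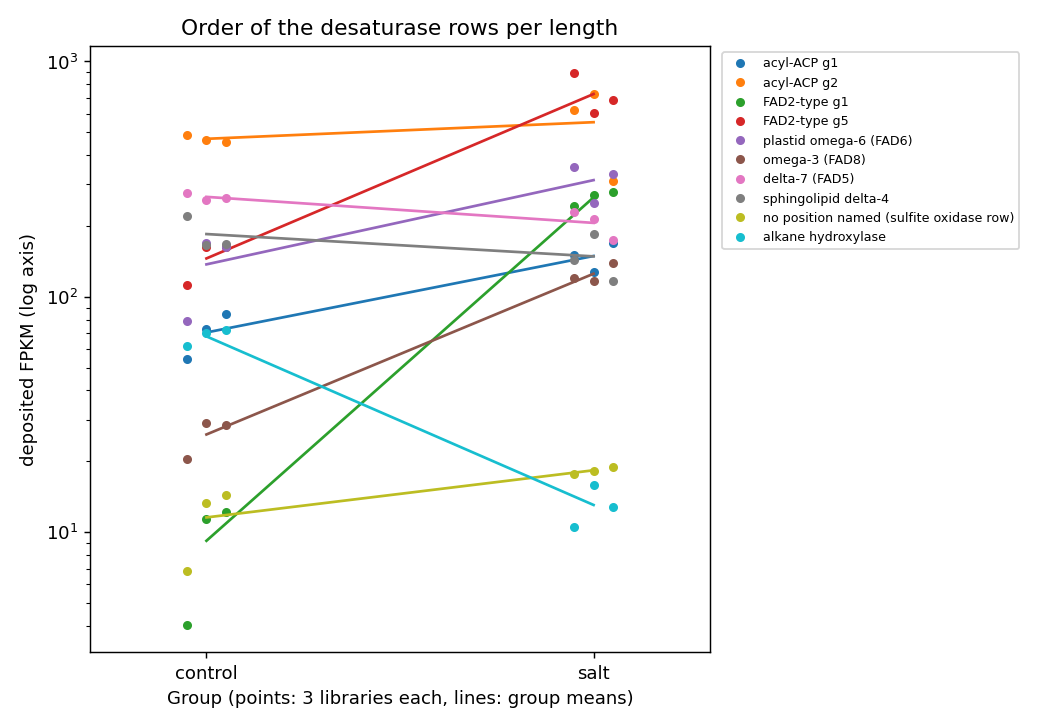
Deposited FPKM (log axis) of the 10 desaturase rows in control and in salt, with points for the 3 libraries of each group and lines joining the group means. The FAD2-type g1 row climbs from the lowest mean in control, 9.18 FPKM, to 264 FPKM in salt, while the alkane hydroxylase row drops to the lowest place.

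The FPKM ratio of the FAD2-type g5 row to the acyl-ACP g2 row, the leading rows in salt, was 0.23, 0.35 and 0.355 in control and 1.43, 0.837 and 2.22 in salt. It was below 1 in all control libraries and in salt replicate 2, and above 1 in the other salt libraries (exact permutation test on the log2 ratio, two-sided p = 0.1, 0.15 adjusted over the 6 ratios).

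Trinity groups related assemblies into clusters, and the 10 rows fall into 8 of them. With the counts of all rows of a cluster summed and refitted over 5848 clusters, 4 of the 8 were raised, 2 lowered and 2 not called, against 30.1% and 29.7% of all clusters. The raised clusters were those of the FAD2-type, plastid omega-6, omega-3 and acyl-ACP rows. The plastid omega-6, omega-3 and delta-7 rows held all or nearly all counts of their clusters, so their cluster fold changes nearly repeat those of the rows. The call on the delta-7 row nevertheless differed between the cluster fit and the row fit, as given below.

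The FAD2 cluster TRINITY_DN4714_c0 has 13 rows, of which 2 are desaturases. Its sum was 674, 546 and 537 CPM in the control libraries and 1799, 1445 and 1536 CPM in the salt libraries, a change of 1.44 ± 0.14 on the log2 scale (SE, edgeR adjusted p = 0.00024). With the desaturase rows taken out of their clusters and summed apart, for which 30.1% of the 5853 units of that fit were raised and 29.8% lowered, the FAD2 pair had a log2 fold change of 2.57. The g5 row held 29.4%, 44.1% and 47.0% of the cluster's counts in control and 75.7%, 66.3% and 68.3% in salt. The g1 row held 0.794%, 2.60% and 2.45% in control and 15.6%, 22.0% and 21.0% in salt. A row matched to a BEACH-domain protein, TRINITY_DN4714_c0_g6, held a mean of 32.9% in control and 4.63% in salt, so the cluster also contains transcripts that are no desaturases.

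The acyl-ACP cluster TRINITY_DN4399_c0 was raised by 0.57 ± 0.17 on the log2 scale (SE, edgeR adjusted p = 0.0227). The control libraries summed to 1131, 974 and 981 CPM, the salt libraries to 1644, 1758 and 1185 CPM. The groups did not overlap. With the 2 desaturase rows alone the log2 fold change was 0.51 (edgeR adjusted p = 0.0409) and the groups overlapped, salt replicate 3 with 1055 CPM lying below control replicate 1 with 1072 CPM. The call on the whole cluster was lost without control replicate 2 or 3 (adjusted p = 0.0689 and 0.0678) and without salt replicate 1 or 2 (adjusted p = 0.0703 and 0.0673). The g2 row held 76.4%, 70.7% and 72.2% of the cluster's counts in control and 60.5%, 67.3% and 41.5% in salt.

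In 2 clusters the sum did not follow its desaturase row. The cluster of the alkane hydroxylase row, TRINITY_DN6008_c4, had a log2 difference of 0.11 ± 0.09 (SE, edgeR adjusted p = 0.346), where that row alone had -2.41 in the same kind of fit. The alkane hydroxylase row held a mean of 58.6% of that cluster's counts in control and 10.4% in salt. A row matched to the plastid ribosomal protein L28, TRINITY_DN6008_c4_g1, held 29.4% and 76.1%.

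The cluster of the sulfite oxidase row, TRINITY_DN5012_c3, was lowered, at -0.46 ± 0.09 on the log2 scale (SE, edgeR adjusted p = 0.00447), where the sulfite oxidase row alone had 0.61 (adjusted p = 0.054, and 0.0375 with the replicate block). That row held a mean of 6.78% of the cluster's counts in control and 14.4% in salt. A row matched to a mitochondrial RNA pseudouridine synthase, TRINITY_DN5012_c3_g2, held 38.9% and 26.1%. For these 2 clusters the sum therefore also describes other genes.

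The delta-7 row is the only row of its cluster TRINITY_DN5316_c2, and its log2 fold change of -0.46 (SE 0.15) was called lowered in the cluster fit (edgeR adjusted p = 0.0329) but not in the row fit (adjusted p = 0.0594), on the same counts. The cluster call was lost without control replicate 1 or 3 (adjusted p = 0.0558 and 0.0681) and without salt replicate 2 or 3 (adjusted p = 0.0684 and 0.114). The sphingolipid row held a mean of 79.3% of its cluster in control and 75.6% in salt, and the log2 fold change of that cluster was -0.26 (SE 0.19, edgeR adjusted p = 0.277).

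**Figure D3:**
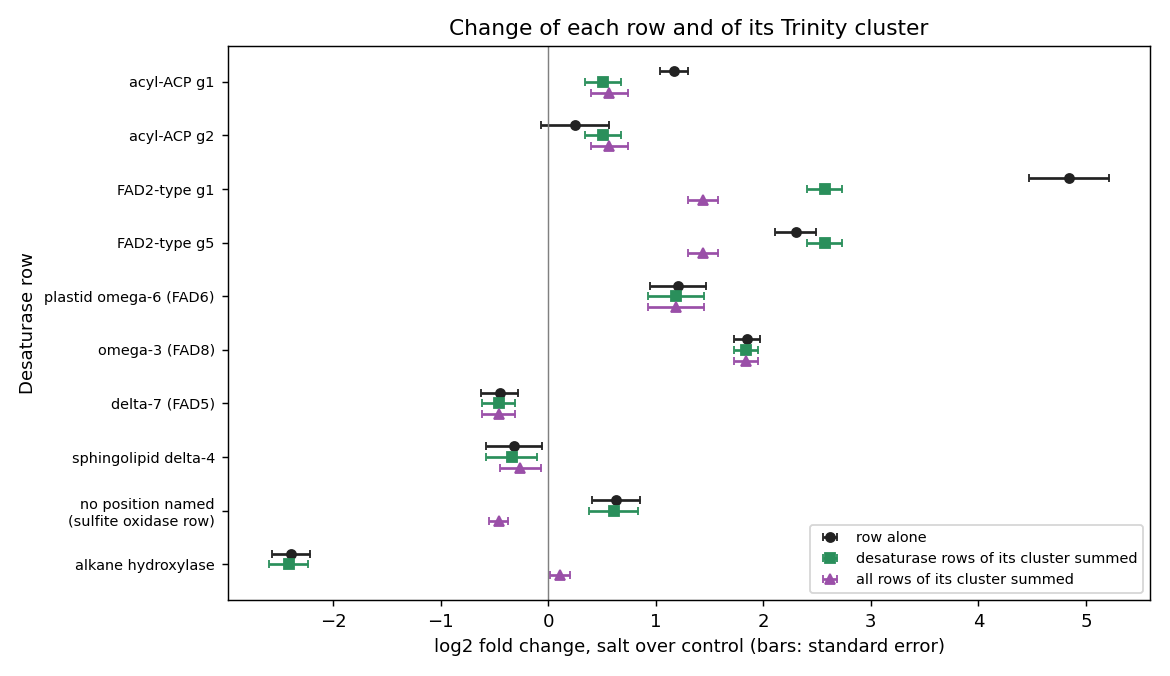
Log2 fold change of salt over control, with its standard error, for each desaturase row alone (black), for the desaturase rows of its cluster summed (green) and for all rows of its cluster summed (purple). The purple and black points part for the alkane hydroxylase row, 0.11 against -2.39, and for the sulfite oxidase row, -0.46 against 0.63.

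**Figure D4:**
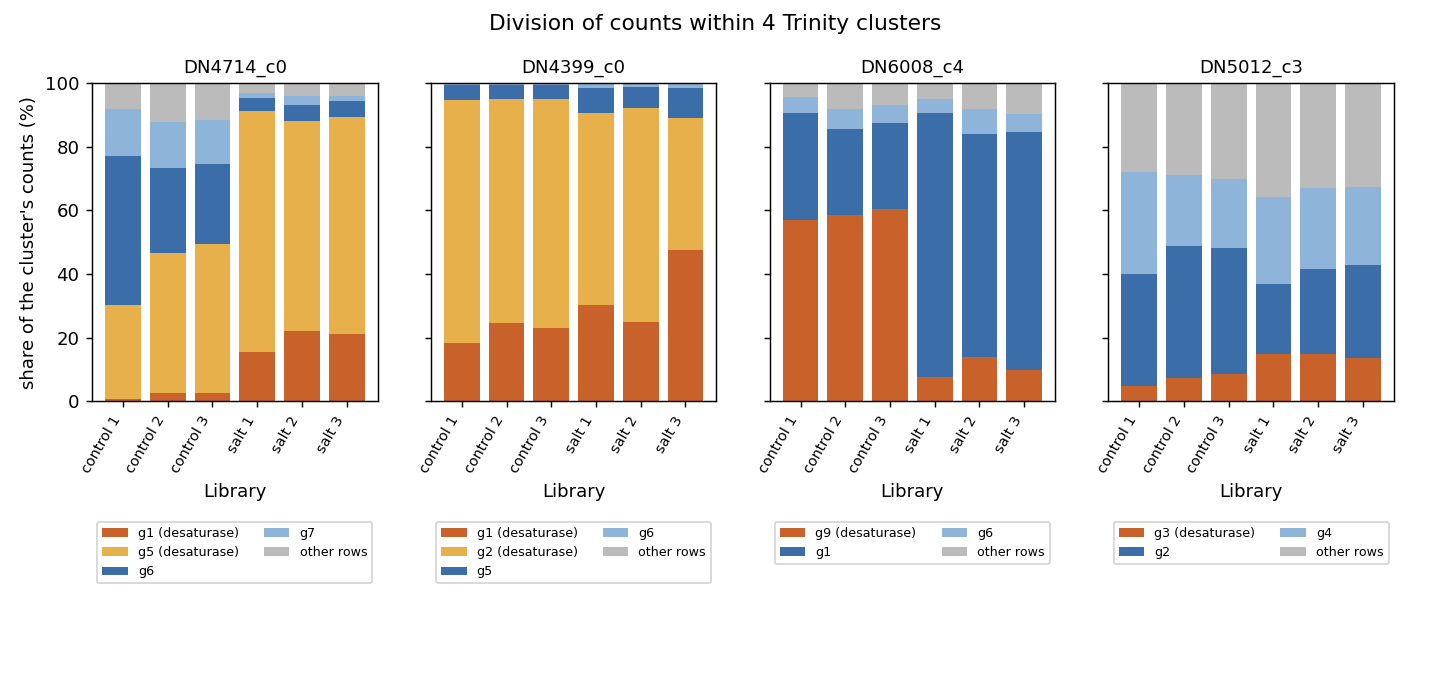
Share (%) of a Trinity cluster's counts held by its desaturase rows (orange and yellow), its other leading rows (blue) and the rest (grey) in each library, for 4 clusters. The desaturase rows of DN4714_c0 grow in salt, with g5 going from a mean of 40.2% to 70.1%, while the alkane hydroxylase row of DN6008_c4 shrinks from 58.6% to 10.4%.

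In the authors' deposited table, 6 of the 10 rows were marked significant, 5 up and 1 down. Of all 22972 rows 18.7% were, but that share includes rows that failed the filter on low counts, which all 10 passed. The share among the 11438 rows that passed the filter and the share in each direction were not computed. The 6 marked desaturase rows were those raised or lowered at least 2-fold in the edgeR test. The log2 fold changes in the authors' deposited table were 4.91 and 2.36 for the FAD2-type g1 and g5 rows, 1.25 for the plastid omega-6 row, 1.12 for the acyl-ACP g1 row and -2.37 for the alkane hydroxylase row.

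Desaturases draw electrons from ferredoxin in the plastid and from cytochrome b5 in the endoplasmic reticulum. Of 14 rows whose descriptions name ferredoxin, ferredoxin-NADP reductase, cytochrome b5 or its reductase, 6 were raised, 3 lowered and 5 not called. With the replicate block 1 was lowered instead of 3, and without any one of the salt replicates it was also 1. The list median of the log2 fold change was 0.70, and the 64.3% called compares with 57.8% of all rows. By its wording the list also takes in pyruvate-ferredoxin oxidoreductase and PGR5-like rows, which are not known as donors to desaturases.

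A chloroplast ferredoxin row, TRINITY_DN5887_c1_g1, rose from 2.69, 5.50 and 5.29 CPM to 79.8, 50.3 and 54.7 CPM, a change of 3.78 ± 0.33 on the log2 scale (SE, edgeR adjusted p = 0.000144). Both ferredoxin-NADP reductase rows among the most abundant of the list, which pass electrons between ferredoxin and NADPH, were raised. TRINITY_DN4619_c2_g1 rose from 332 ± 40.6 to 836 ± 163 CPM (edgeR adjusted p = 0.00101), and TRINITY_DN5695_c0_g1 from 105 ± 55.8 to 603 ± 62.8 CPM (adjusted p = 0.00105; SD, n = 3). The pyruvate-ferredoxin oxidoreductase row TRINITY_DN5899_c0_g1 had 1944 ± 1067 and 1056 ± 655 CPM and did not pass the test (edgeR adjusted p = 0.215). Of the rows matched to cytochrome b5 reductase 4, TRINITY_DN4899_c2_g3 was raised (log2 fold change 0.82, edgeR adjusted p = 0.00311). TRINITY_DN4403_c2_g3 was lowered (-1.28, adjusted p = 0.0427), with -2.32 between the replicate 1 libraries and -0.45 within replicates 2 and 3. The other lowered rows were the ferredoxin TRINITY_DN2710_c0_g1 (-0.77, adjusted p = 0.0358; -1.31 and -0.39 in the same split) and the PGR5-like TRINITY_DN5032_c0_g1 (-1.45, adjusted p = 0.00104). With the replicate block TRINITY_DN4403_c2_g3 and TRINITY_DN2710_c0_g1 lost their calls (edgeR adjusted p = 0.0714 and 0.0548). The b5 reductase and lowered rows are named after their values were seen.

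Of 20 rows of fatty acid synthesis, which makes the chains that desaturases act on, 19 were tested, 8 were raised, 4 lowered and 7 not called. The list median was 0.36, with 63.2% called against 57.8% of all rows (29.1% raised and 28.7% lowered). Its raised rows include TRINITY_DN2452_c0_g1, matched to a mitochondrial acyl carrier protein and with the KEGG name NDUFAB1. They also include TRINITY_DN4057_c0_g1, described as a malonyl-CoA transacylase in NR but matched to the cell differentiation protein RCD1 in Swiss-Prot. The row with the smallest p, TRINITY_DN3752_c0_g1, matches a 3-oxoacyl-ACP enzyme of chain elongation and rose from 79.7 ± 8.42 to 429 ± 54.6 CPM, which is 2.43 ± 0.15 on the log2 scale (SE, edgeR adjusted p = 4.47e-05). An acyl carrier protein row, TRINITY_DN4588_c2_g1, rose from 94.2 ± 61.6 to 537 ± 154 CPM (edgeR adjusted p = 0.0115), with a log2 fold change of 4.90 between the replicate 1 libraries and 1.79 within replicates 2 and 3. The other acyl carrier protein row of that Trinity cluster, TRINITY_DN4588_c2_g2, fell from 62.9 ± 15.8 to 13.3 ± 2.91 CPM (edgeR adjusted p = 0.000388). Among rows for acetyl-CoA carboxylase, which makes malonyl-CoA, those described as plastid subunits did not pass the test: the alpha carboxyltransferase TRINITY_DN5410_c1_g2 had a log2 fold change of -0.25 (edgeR adjusted p = 0.299) and the biotin carboxylase TRINITY_DN4442_c0_g1 one of -0.03 (adjusted p = 0.907). TRINITY_DN5113_c2_g3 and TRINITY_DN5725_c0_g1, with the KEGG name ACACA, were lowered, with log2 fold changes of -1.79 (edgeR adjusted p = 8.32e-05) and -1.73 (adjusted p = 9.7e-05). These 3 lowered rows are named after their values were seen.

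Of 20 rows for the glycerolipids that carry the chains, 19 were tested, 7 were raised, 7 lowered and 5 not called, with a median of -0.03. The 73.7% called compares with 57.8% of all rows, and in each direction with 29.1% raised and 28.7% lowered. The list also takes in TRINITY_DN5001_c0_g2, matched to presqualene diphosphate phosphatase, which was lowered. TRINITY_DN5339_c0_g2, matched to diacylglycerol O-acyltransferase 1 but with the KEGG name RUMI, was not called. The plastid glycerol-3-phosphate acyltransferase TRINITY_DN4427_c0_g2, which starts plastid glycerolipid assembly, rose from 36.8 ± 1.57 to 89.9 ± 3.70 CPM (edgeR adjusted p = 0.000102). TRINITY_DN5979_c0_g1 is matched in Swiss-Prot to DGAT2, which makes the storage lipid triacylglycerol, but its KEGG name is MOGAT2 or MGAT2. This row rose from 162 ± 12.4 to 314 ± 45.2 CPM (edgeR adjusted p = 0.00131). The other rows of the list with that KEGG name were lowered. TRINITY_DN4750_c1_g3 fell from 175 ± 37.7 to 48.9 ± 4.11 CPM (edgeR adjusted p = 0.000232). It is described as a diacylglycerol acyltransferase in NR but matched to an amino acid permease in Swiss-Prot. TRINITY_DN4630_c2_g1 fell from 97.9 ± 9.97 to 68.1 ± 4.11 CPM (adjusted p = 0.0079). These lowered rows are named here after their values were seen. The digalactosyldiacylglycerol synthase TRINITY_DN4255_c0_g1, which makes a main thylakoid lipid, fell from 313 ± 60.2 to 162 ± 28.7 CPM (adjusted p = 0.00487). The glycerol-3-phosphate acyltransferase 3 row TRINITY_DN5129_c3_g1 fell from 487 ± 119 to 333 ± 30.6 CPM (adjusted p = 0.0439; SD, n = 3 each).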

How the data were processed

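The authors deposited 1 table with raw counts and FPKM per assembled row and library, per the file headers. The same table holds, per the file headers, the authors' log2 fold change, p-value and FDR. The sources used here do not give assembler settings, aligner, counter or test; per the labels' protocols libraries followed a Proton procedure, while the series text names Illumina, and this was not settled.

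The members and gene lists were chosen with earlier results of these data known. Counts were tested with edgeR 4.0.16 (R 4.3.3): TMM factors, filterByExpr (minimum 10 counts), quasi-likelihood, condition as the only term, Benjamini-Hochberg over all rows tested, threshold 0.05. Cluster counts were sums over rows sharing a Trinity identifier up to its last part. FPKM was used as deposited for levels and ratios. Named from each list were the 3 most abundant rows and the row with the smallest p. Alternatives used DESeq2 1.42.0 and, on log2(FPKM + 0.1 or 1), limma 3.58.1.

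Replicate numbers are shared between groups. Deviations from the group means correlated at 0.36, 0.15 and 0.24 for the same-numbered pairs, all above the 0.1 taken as the criterion, although salt replicate 3 and control replicate 2 correlated at 0.32. The labels do not say what a number marks. Although the criterion was met, the main test kept condition as its only term. With the replicate block 2 desaturase rows were lowered in place of 1, the delta-7 row being added. No 2 libraries agreed within sampling noise. At these depths 1 count was 0.0416 to 0.0608 CPM. The intervals and errors given cover the spread between libraries only.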

Additional observations from a re-analysis of the deposited data

How the results depend on the processing

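Of 298 single row and cluster values recomputed under an alternative, 272 kept their direction and side of the threshold, 18 lost and 6 gained the call, and 2 reversed. The reversals came from summing only the desaturase rows of a cluster, which gave 0.61 for TRINITY_DN5012_c3 and -2.41 for TRINITY_DN6008_c4. With a 2-fold minimum 3834 rows were called, 1814 raised and 2020 lowered, 0 desaturase clusters were lowered, and the membrane lipid list had 3 raised and 3 lowered. Desaturase rows lowered numbered 2 with DESeq2 size factors, the DESeq2 Wald test, the replicate block and a term for the replicate 1 libraries. Desaturase clusters lowered numbered 1 with upper-quartile factors, 0 with library totals and 1 with Pfam domain rows alone, an alternative chosen after seeing the data, and 1 to 2 leaving out 1 library. Electron donor rows lowered numbered 1 with library totals, 1 with the replicate block and 1 to 3 leaving out 1 library. In the row fit the block changed no call among the desaturases beyond that of the delta-7 row. The cluster TRINITY_DN6008_c4 was called raised with upper-quartile factors (0.26, edgeR adjusted p = 0.0327) and with library totals (0.30, adjusted p = 0.0197). Where no value or construction of an alternative shows it, the cause was not tested. FPKM carries no count precision, and 3 libraries a group cannot take an exact permutation test below 0.1.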

Other observations

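The rows whose pattern over the 6 libraries was most like that of a desaturase row were sought among 4143 rows with a description and a mean of at least 10 CPM. The measure of likeness was the root mean square difference of centred log2 CPM. For the FAD2-type row TRINITY_DN4714_c0_g1 the closest was TRINITY_DN4844_c1_g8, matched to a hyperpolarization-activated cation channel, with a difference of 0.282. It had 3.02, 4.95 and 4.22 CPM in the control libraries and 121, 107 and 118 CPM in the salt libraries. Next were TRINITY_DN4759_c0_g3, matched to a papain-family peptidase in one database and to subtilisin in another, with 0.345, and the DUF506 row TRINITY_DN5573_c0_g5 with 0.406.

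For the acyl-ACP row TRINITY_DN4399_c0_g2, the desaturase row with the highest mean CPM, the closest were TRINITY_DN5207_c0_g2, matched to the purine permease AZG1, with a difference of 0.122, and TRINITY_DN4757_c1_g1, matched to a lysine-specific demethylase, with 0.167. The third was TRINITY_DN5174_c0_g1, matched to phosphoenolpyruvate carboxykinase, with 0.182. All 3 were lowest among the salt libraries in replicate 3, as the acyl-ACP row was. They were selected for likeness over these same libraries, so the shared low value follows from the selection and is no separate evidence. The AZG1 row had 94.8, 63.4 and 74.3 CPM in the control libraries and 118, 141 and 58.8 CPM in the salt libraries.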
